A study of Mus musculus with 7 samples.

Results

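The synaptotagmin genes encode membrane proteins that take part in the fusion of vesicles with their target membrane. In the RNA-seq data of cultured mouse oligodendroglia, 10 of them were followed, namely Syt1, Syt2, Syt3, Syt4, Syt5, Syt6, Syt7, Syt11, Syt13 and Syt17, out of 17 genes of this name and 49315 gene identifiers in the files. Each of the 10 symbols matched 1 identifier. The family was taken up because Syt4 had among the strongest decreases in the Klf13 knockout, so the fit to this contrast is no independent test of the members. Their differences are given as a description, with no p-value, and where a member is called or passes the adjusted p below, this only places it in the ranking of all genes. The data come from 7 libraries of primary mouse oligodendroglia. A total of 4 libraries carried the genotype label Klf13-wt and served as wildtype control, and 3 carried the label Klf13-ko. The study describes the deletion as constitutive and not restricted to a lineage, so it also affects any other cell type left in the knockout cultures. Precursor cells were shaken off from mixed glial cultures of newborn brains (postnatal days 0 to 3, both sexes), depleted of microglia, and then kept in both groups for 6 days in SATO medium with the thyroid hormones T3 and T4, which starts differentiation. The labels call the libraries of a group biological replicates but do not say whether cultures came from separate animals or litters, so the spread given below is that between these libraries.

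Most synaptotagmins are anchored in the vesicle membrane by a single transmembrane segment and carry a pair of C2 domains in the cytoplasm. In the calcium-binding members these domains insert into the membrane when calcium rises and act on the SNARE proteins, the machinery that pulls vesicle and target membrane together. The family is best known from neurons, where fast members trigger transmitter release. Syt4 and Syt11 are closest relatives of each other and carry a serine in the first C2 domain in place of a calcium-binding aspartate.

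Levels are given as normalized counts, in which differences in scaled library size were removed and the total was set to the mean over libraries, or as FPKM, which are in addition divided by exonic length and allow comparison between genes. A gene was called where its adjusted p in the quasi-likelihood test of edgeR did not exceed 0.05 and the log2 fold change, knockout over control, was at least 1 in size. Of 18352 genes tested, 7.05% were called, 3.08% as lower and 3.97% as higher in the knockout. The libraries held 24507471 to 59596479 counts. Klf13, the targeted gene, had 10670 to 12000 normalized counts in controls and 801.6 to 961.2 in knockouts, with a log2 fold change of -3.69 (SE 0.09, adjusted p = 6.77e-06, edgeR). The lineage markers Sox10, Olig1 and Olig2 summed to 809.1 to 983.6 FPKM in the controls and 713.4 to 933.9 in the knockouts, so that all libraries held them. The summed 7 microglia markers stood at 653.1 FPKM in control 3 and at 139.2 to 145.3 in the other controls, against 136.5 to 263 in the knockouts. For the synaptotagmin and vesicle genes named below, results that turn on control 3 or any other single library are given without it as well. Calls of cell type markers were not examined in this way and rest on all libraries.

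RefSeq promoter windows on GRCm38.p6 were at hand for 5 of the 10 genes (Syt1, Syt2, Syt3, Syt6 and Syt11) and were not found in the table for Syt4, Syt5, Syt7, Syt13 and Syt17. The 250 bases before the start site are printed for Syt11, the member with the highest level, and for Syt6 and Syt1, called higher in the knockout. KLF proteins of this group are known to bind CACCC and GC boxes, so CACCC and GGGCGG were searched on both strands (GGGTG and CCGCCC as their reverse complements), and the matches are in capitals. The windows lie at chr3:88772600-88772849 on the minus strand for Syt11, chr3:103574995-103575244 on the plus strand for Syt6 and chr10:109010976-109011225 on the minus strand for Syt1.
Syt11: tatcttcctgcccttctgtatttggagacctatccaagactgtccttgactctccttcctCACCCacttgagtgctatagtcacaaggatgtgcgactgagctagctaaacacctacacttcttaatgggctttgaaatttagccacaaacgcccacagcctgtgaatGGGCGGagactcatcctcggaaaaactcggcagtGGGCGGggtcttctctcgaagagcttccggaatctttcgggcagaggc
Syt6: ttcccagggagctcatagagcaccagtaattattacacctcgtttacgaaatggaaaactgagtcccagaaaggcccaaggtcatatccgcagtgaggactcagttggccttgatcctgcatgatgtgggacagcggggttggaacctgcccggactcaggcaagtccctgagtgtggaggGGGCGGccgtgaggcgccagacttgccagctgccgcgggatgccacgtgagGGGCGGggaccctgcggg
Syt1: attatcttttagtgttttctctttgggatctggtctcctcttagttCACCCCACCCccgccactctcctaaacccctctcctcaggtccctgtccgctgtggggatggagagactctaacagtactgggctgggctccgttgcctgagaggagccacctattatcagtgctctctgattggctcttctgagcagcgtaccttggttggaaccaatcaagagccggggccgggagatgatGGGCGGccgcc

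In these letters Syt11 had 1 CACCC and 2 GGGCGG, Syt6 had 2 GGGCGG and no CACCC, and Syt1 had 2 CACCC and 1 GGGCGG. Each motif occurred in 4 of the 5 windows, whereas 52.0% of all 32851 windows of this length held CACCC and 32.7% held GGGCGG. The GC content was 51.2% for Syt11, 60.4% for Syt6 and 56.4% for Syt1, with a median of 52.4% over all windows. The Syt11 window starts inside the gene as given in the count files, as its start site lies 2565 bases from the start of the gene there, whereas those of Syt6 and Syt1 lie within 14 and 7 bases of it. A match of letters is no evidence of binding, and no binding data were analysed here.

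Of the 10 genes, which all passed the filter on low counts, 1 was called lower and 4 were called higher in the knockout, beside the 3.08% and 3.97% of all genes. The groups did not overlap for 2 genes that were lower and 5 that were higher, whereas 18.0% and 18.3% of all tested genes were without overlap in these directions and 36.2% in either. Syt4 and Syt11 passed the adjusted p on the lower side, as 12.2% of all genes did, and Syt1, Syt3, Syt5, Syt6 and Syt17 on the higher side, as did 11.6%. The median log2 fold change of the 10 genes was 0.96 and without Syt4 it was 0.998, while that of all tested genes was -0.0037. These counts describe genes chosen on the same contrast, and nothing is read from them.

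**Figure D1:**
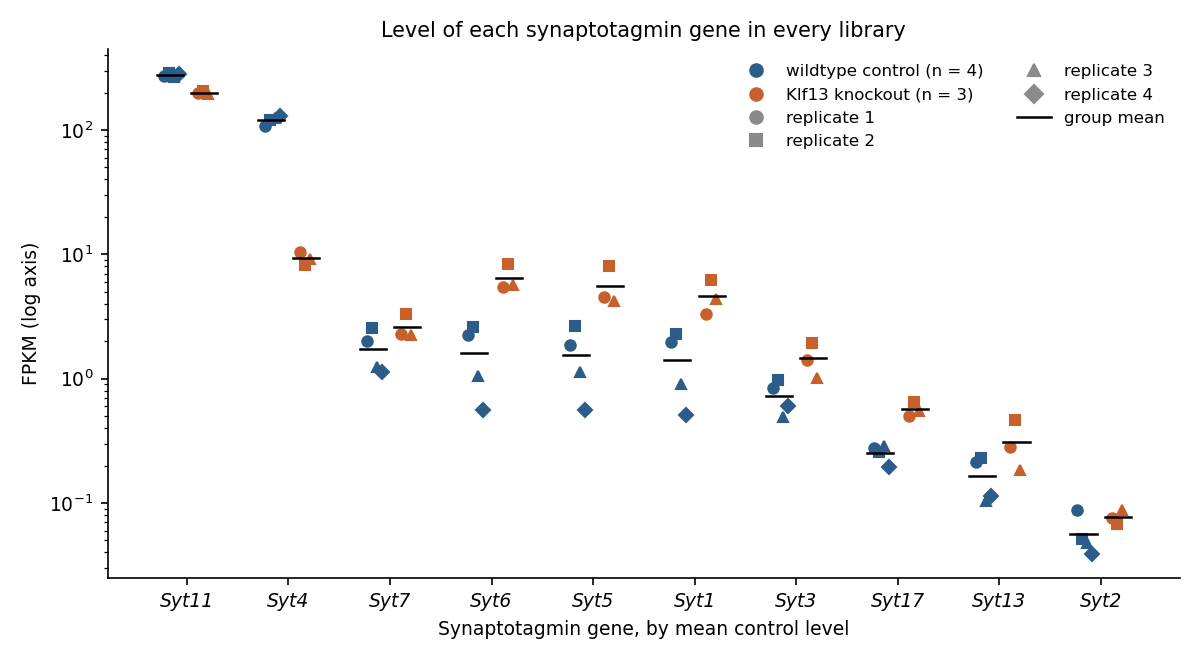
Level of each of the 10 synaptotagmin genes in FPKM (log axis) in each of 4 wildtype control and 3 Klf13 knockout libraries, with marker shape for the replicate number and a bar for the group mean, genes in order of the control mean. Syt11 and Syt4 stand far above the others in the controls, and in the knockouts Syt4 lies at 8.25 to 10.48 FPKM, near Syt6.

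Syt4 and Syt11, the pair with the serine exchange, made up nearly all synaptotagmin transcripts of the control cells. Syt4, which in neurons sits on dense core vesicles and is induced by activity, lies on chromosome 18 of GRCm38 from 31437808 to 31447415 on the minus strand. It had 18620, 20520, 21560 and 22440 normalized counts in control replicates 1 to 4 and 1798, 1415 and 1579 in knockout replicates 1 to 3. All knockout libraries were far below all control libraries, and the relative spread in each group was small (SD 7.89% and 12.03% of the mean). The mean was 20780 ± 1641 (SD, n = 4) in the controls and 1597 ± 192 (SD, n = 3) in the knockouts, which is 7.69% of the control level or 13.0-fold lower. The log2 fold change of Syt4 was -3.70 (SE 0.11), the 15th lowest value among the 18352 tested genes. An antisense gene, Gm26658, overlaps Syt4 and held 8 to 60 counts where Syt4 held 996 to 23973.

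Syt11, a vesicle and membrane trafficking protein that does not act as a calcium sensor, lies on chromosome 3 from 88744700 to 88775164 on the minus strand. It had 62310, 65450, 61520 and 65060 normalized counts in the control libraries, against 45240, 47360 and 44490 in those of the knockout. The groups were apart here too, though by a much smaller step than for Syt4. Its mean was 63590 ± 1961 (SD, n = 4) in the controls and 45700 ± 1490 (SD, n = 3) in the knockouts, 71.9% of the control level. The log2 fold change of -0.48 (SE 0.06) was past the adjusted p of 0.05 but below the fold required for a call. With an SD of 3.08% and 3.26% of the mean, Syt11 varied least of all 10 genes between libraries of a group.

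As both genes differed unequally, their proportion was shifted. The FPKM of Syt11 was 2.51, 2.39, 2.14 and 2.17 times that of Syt4 in the controls, and 18.9, 25.1 and 21.1 times in the knockouts. The mean ratio was thus 2.30 ± 0.18 (SD, n = 4) in controls and 21.7 ± 3.15 (SD, n = 3) in knockouts.

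Summed over the 10 genes, the level was 390.3, 417.1, 399.7 and 418.8 FPKM in the controls and 225.9, 244.1 and 222 FPKM in the knockouts. The mean sum was 406.5 ± 13.8 FPKM (SD, n = 4) against 230.7 ± 11.8 FPKM (SD, n = 3). Of the difference of 175.8 FPKM, Syt4 contributed 111.8 and Syt11 78.2, and the other 8 genes together were 14.2 FPKM higher in the knockouts. The share of Syt4 in the sum was 29.8% ± 1.82 (SD, n = 4) in controls and 4.06% ± 0.64 (SD, n = 3) in knockouts, and that of Syt11 was 68.4% ± 1.07 and 86.6% ± 1.60. Syt4 and Syt11 together held 98.1% ± 0.90 of the sum in controls and 90.7% ± 2.19 in knockouts. The other 8 genes reached 9.50, 11.6, 5.27 and 3.73 FPKM in the controls and 17.8, 29.0 and 18.4 FPKM in the knockouts. All 3 knockout libraries were above all controls in this remainder, and controls 3 and 4 were the lowest.

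**Figure D2:**
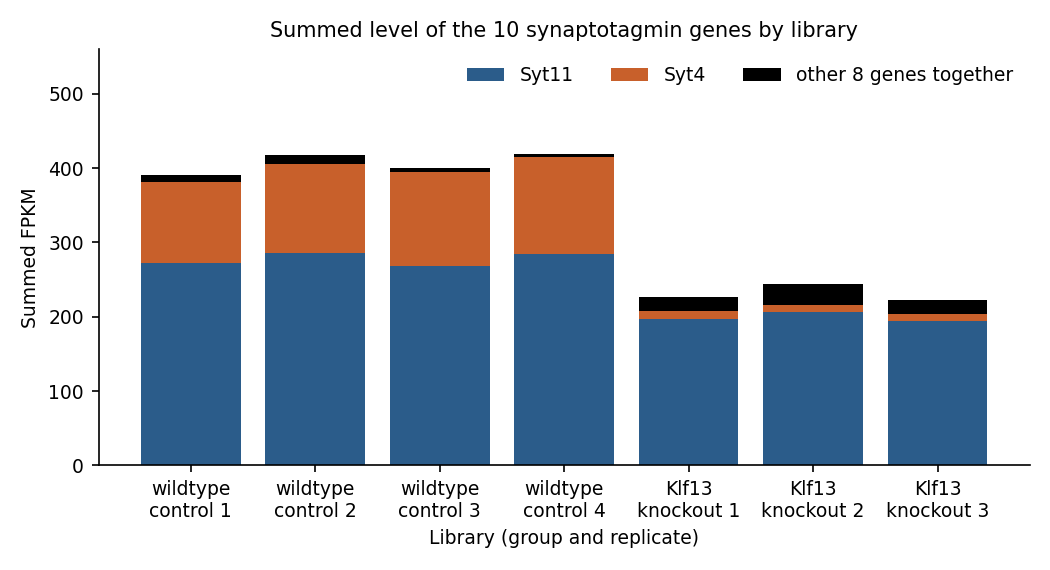
Summed FPKM of the 10 synaptotagmin genes in each library (bars from 0), split into Syt11, Syt4 and the other 8 genes together. The controls sum to 390.3 to 418.8 FPKM and the knockouts to 222 to 244.1 FPKM, with the Syt4 part small and the part of the other 8 genes larger in the knockouts.

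The calcium sensors of vesicle release, Syt1, Syt2 and Syt5, were present at low levels. Syt1, the fast sensor of synaptic vesicles in forebrain neurons, lies on chromosome 10 from 108497650 to 109010982 on the minus strand. It had 722.4, 841.6, 334.9 and 187.2 normalized counts in the control libraries, against 1206, 2268 and 1606 in those of the knockout. The controls spanned a wide range, with replicates 1 and 2 high and replicates 3 and 4 low, but stayed below all knockouts. The mean was 521.5 ± 310.6 (SD, n = 4) against 1694 ± 536.5 (SD, n = 3), 3.25-fold higher in the knockout, with a log2 fold change of 1.70 (SE 0.50). Syt1 was called higher, but the call was lost without control 1 (log2 fold change 1.93), control 3 (1.54), knockout 1 (1.92), knockout 2 (1.44) or knockout 3 (1.76) and with no filter on low counts (1.70).

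Syt5, known from dense core vesicles of neurons and endocrine cells, lies on chromosome 7 from 4539765 to 4547541 on the minus strand. It had 194.4, 275.5, 118.9 and 58.97 normalized counts in the control libraries, against 474.8, 841.3 and 444.8 in those of the knockout. The order of the libraries resembled that of Syt1, with control 4 lowest and knockout 2 highest, and the groups did not overlap. The mean was 161.9 ± 93.8 (SD, n = 4) against 587 ± 220.8 (SD, n = 3), 3.63-fold higher, with a log2 fold change of 1.86 (SE 0.49) and a call as higher. This call was lost without control 1 (1.99), control 3 (1.74), knockout 1 (2.01) or knockout 2 (1.51) and with no filter on low counts.

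Syt2, the fast sensor of hindbrain and neuromuscular synapses, lies on chromosome 1 from 134646677 to 134762593 on the plus strand and was the member with the lowest level. It had 29.7, 17.1, 16.0 and 13.1 normalized counts in the control libraries, against 25.3, 22.7 and 29.7 in those of the knockout, from 14 to 39 raw counts per library. Control 1 was level with the highest knockout, so that the groups overlapped. The mean was 19.0 ± 7.35 (SD, n = 4) against 25.9 ± 3.55 (SD, n = 3) with a log2 fold change of 0.47 (SE 0.32), and Syt2 was not called. Its locus overlaps that of Ppp1r12b on the opposite strand, which held 2382 to 7753 counts. As the strand setting of the counting is not given in the sources used here, the few Syt2 counts are uncertain.

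Syt3 and Syt6 belong to a subgroup linked by disulfide bonds near the amino terminus. Syt6 is known for its part in the acrosomal exocytosis of sperm and lies on chromosome 3 from 103575231 to 103645569 on the plus strand. It had 576.5, 663.7, 270.9 and 143.2 normalized counts in the control libraries, against 1392, 2135 and 1460 in those of the knockout. Every knockout library was far above the highest control, again with control 4 lowest and knockout 2 highest. The mean was 413.6 ± 246.7 (SD, n = 4) against 1662 ± 410.7 (SD, n = 3), 4.02-fold higher and the largest relative excess among the 10 genes, with a log2 fold change of 2.01 (SE 0.49). Syt6 was called higher, and this call was lost without knockout 1 (2.15), without knockout 2 (1.79) and with no filter on low counts (2.01).

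Syt3, a sensor of high calcium affinity, lies on chromosome 7 from 44384102 to 44400187 on the plus strand. It had 114.8, 134.7, 67.4 and 83.3 normalized counts in the control libraries, against 195, 264.6 and 139.4 in those of the knockout. The lowest knockout was just above the highest control. The mean was 100.1 ± 30.4 (SD, n = 4) against 199.7 ± 62.8 (SD, n = 3) with a log2 fold change of 0.998 (SE 0.30), which fell short of the required 1 by a margin far below its error. It was therefore not called, but was so without control 2 (1.18), without knockout 3 (1.22), with upper quartile normalization (1.03), with at least 10 counts required in every library (1.003) and with the share of ribosomal RNA counts as covariate (1.12). It did not pass the adjusted p in 8 of 16 alternatives, among them leaving out controls 1, 3 or 4 or knockouts 1 or 2. The gene 1700008O03Rik overlaps on the opposite strand with 15 to 37 counts, against 59 to 385 for Syt3.

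Syt7, a high-affinity sensor known from lysosome exocytosis and synaptic facilitation, lies on chromosome 19 from 10389090 to 10453181 on the plus strand. It had 615.7, 782.3, 377.2 and 349.1 normalized counts in the control libraries, against 695.1, 1013 and 685.5 in those of the knockout. Control 2 exceeded knockouts 1 and 3, so the groups overlapped. The mean was 531.1 ± 205.8 (SD, n = 4) against 797.7 ± 186.1 (SD, n = 3), and with a log2 fold change of 0.59 (SE 0.31) Syt7 was not called in any of 16 alternative analyses.

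Syt13 and Syt17 are atypical members, as Syt13 does not bind calcium and Syt17 lacks the transmembrane segment. Syt17 lies on chromosome 7 from 118380717 to 118448222 on the minus strand and had 63.5, 58.3, 66.3 and 44.9 normalized counts in the control libraries, against 115.5, 149.2 and 124.9 in those of the knockout. Its controls lay close together, unlike those of Syt1, Syt5 and Syt6, and well below the knockouts. The mean was 58.3 ± 9.48 (SD, n = 4) against 129.9 ± 17.4 (SD, n = 3), 2.23-fold higher, with a log2 fold change of 1.16 (SE 0.19). Syt17 was the only member called higher that was so in all 16 alternatives (1.05 to 1.27). Syt13, on chromosome 2 from 92915098 to 92956058 on the plus strand, had 35.1, 38.2, 17.2 and 18.7 normalized counts in the control libraries, against 46.9, 76.3 and 30.5 in those of the knockout. Knockout 3 was within the control range. The mean of Syt13 was 27.3 ± 10.9 (SD, n = 4) against 51.2 ± 23.2 (SD, n = 3) with a log2 fold change of 0.92 (SE 0.42), and it was not called.

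**Figure D3:**
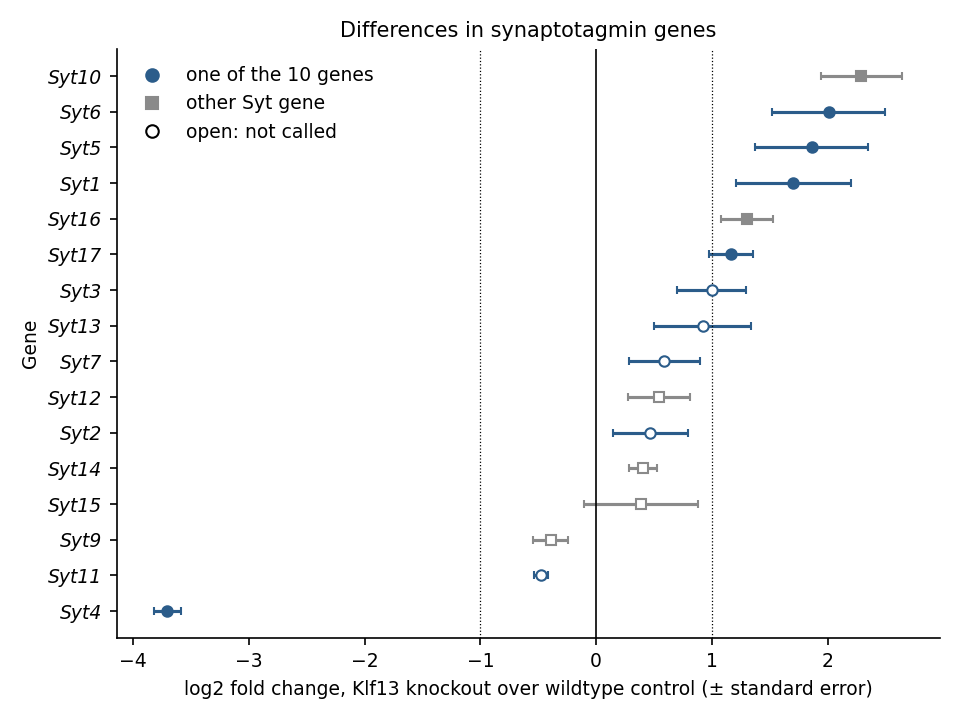
Log2 fold change, knockout over control, of the 10 synaptotagmin genes (circles) and of 6 further tested Syt genes (squares), with bars of 1 standard error and dotted lines at the required log2 fold change of 1 in either direction. Filled symbols mark called genes, with Syt4 at -3.70 as the only called gene on the lower side and Syt10, Syt6, Syt5, Syt1, Syt16 and Syt17 on the higher side.

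Among the 10 genes, ordered by level per length, the control cells had Syt11 first with 277.8 ± 8.57 FPKM (SD, n = 4), followed by Syt4 with 121.2 ± 9.56 FPKM. The FPKM of Syt4 was 69.9 times that of the next gene of the 10, Syt7 with 1.73 ± 0.67. Syt6 with 1.61 ± 0.96, Syt5 with 1.55 ± 0.90, Syt1 with 1.42 ± 0.85 and Syt3 with 0.73 ± 0.22 FPKM came next. From Syt7 to Syt3 each neighbour overlapped with the next in its range over libraries, so that the ranges do not resolve the order of neighbours. Syt7 (1.14 to 2.55 FPKM) and Syt3 (0.49 to 0.98 FPKM) did not overlap with each other. Syt17 with 0.25 ± 0.04 and Syt13 with 0.17 ± 0.07 FPKM overlapped too, and Syt2 was last of the 10 with 0.06 ± 0.02 FPKM. Outside the 10, Syt12 had 4.34 ± 1.41 FPKM in the controls, above all of them but Syt11 and Syt4. In the knockouts Syt12 had 6.32 ± 1.57 FPKM (SD, n = 3).

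In the knockouts Syt11 was first with 199.6 ± 6.51 FPKM (SD, n = 3), now 21.4 times the level of Syt4. Syt4 with 9.31 ± 1.12 FPKM still had the second place by its mean but was only 1.44 times the level of Syt6 with 6.49 ± 1.60, and both overlapped in range. Syt6, Syt5 with 5.61 ± 2.11, Syt1 with 4.62 ± 1.46 and Syt7 with 2.60 ± 0.61 FPKM overlapped each with the next. Syt3 with 1.46 ± 0.46, Syt17 with 0.57 ± 0.08, Syt13 with 0.31 ± 0.14 and Syt2 with 0.08 ± 0.01 FPKM were each apart from their neighbours.

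The low members varied in a shared pattern between libraries. Control 2 had the highest control value for 7 of the 10 genes, control 4 had the lowest for 6, and knockout 2 had the highest knockout value for 8. Markers of neurons ran alongside, but the pattern was not particular to them. The mean log2 level of 15 neuron markers, relative to the mean of the controls, was 0.17, 0.52, -0.12 and -0.57 in controls 1 to 4 and 1.04, 1.47 and 0.90 in knockouts 1 to 3, again with control 2 and knockout 2 at the top of their group and control 4 at the bottom. The mean of 8 astrocyte markers was also highest in control 2 (0.28) and knockout 2 (0.86), but lowest in control 3 (-0.38). That of 17 regulators of vesicle fusion, described below, had control 2 (0.12) and knockout 2 (0.56) at the top and control 4 (-0.19) at the bottom. Mature oligodendrocyte markers ran from 0.18 in control 2 to -0.17 in control 4, but were lowest in knockout 2 (-2.46). Microglia, fibroblast and OPC markers did not share the pattern. The 16 listed neuron markers summed to 146.8 to 201.4 FPKM in the controls and 241.9 to 340 FPKM in the knockouts. Of the 15 tested ones, 8 were called, all as higher, none of the 16 was at 0 in all libraries, and 2 stayed under 1 FPKM throughout. Gad1, which makes the transmitter GABA, had 472.7 to 1996 normalized counts in controls and 3669 to 5188 in knockouts, and Rbfox3, a marker of mature neurons, had 66.5 to 326.8 and 495.8 to 1040. Both were picked after their values were seen, and other neuron markers differed from them. Elavl3, Nefl and Nefm had log2 fold changes of -0.46, -0.45 and -0.73, were not called and overlapped between the groups. Astrocyte markers summed to 488.8 to 654.1 FPKM in the controls and 921.3 to 1091 FPKM in the knockouts, with 2 of 8 called higher. OPC markers summed to 450.2 to 494.9 and 535.8 to 561.5 FPKM and 2 of 6 passed the adjusted p as higher, but not the fold. Markers of mature oligodendrocytes, among which Mbp encodes a major myelin protein, summed to 3875 to 4581 FPKM in the controls and 1089 to 1219 FPKM in the knockouts, with 7 of 8 called lower. Summed markers of fibroblasts and mural cells were at 83.3 to 224 FPKM in controls and 44.4 to 84.3 FPKM in knockouts (1 of 7 called, as lower), and the 5 endothelial markers were at 0.86 to 2.28 and 0.63 to 1.03 FPKM (1 of 3 tested called, as lower). The part of other cell types in the synaptotagmin levels was not tested, and in bulk RNA fewer cells of a type and less RNA per cell cannot be told apart.

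**Figure D4:**
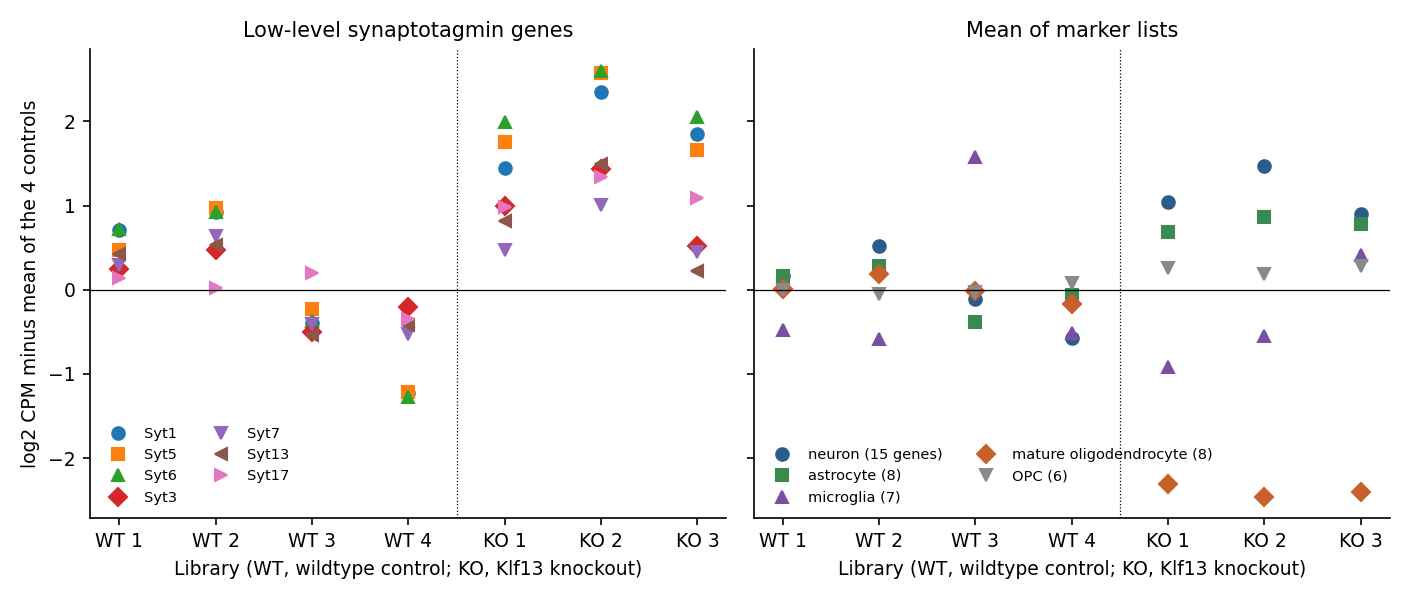
Log2 CPM relative to the mean of the 4 controls in each library, for 7 of the low-level synaptotagmin genes (left) and for the mean of each of 5 marker lists (right), with a dotted line between controls and knockouts. Most synaptotagmin genes shown and the neuron and astrocyte markers are highest in control 2 and knockout 2 of their group, while the mature oligodendrocyte markers are low in all knockouts.

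The genes most like Syt4 in pattern were sought by Pearson's r of log2 CPM over the 7 libraries, among tested genes with a mean normalized count of at least 20. These were Ugt8a (r = 0.9993), Tmem88b (0.9990), Nfasc (0.9987), Cemip2 (0.9986) and Map6d1 (0.9985). Ugt8a makes the myelin lipid galactosylceramide, and Nfasc encodes neurofascin, an adhesion molecule of the paranodal contact. With only 7 libraries in separate groups, such r values mainly reflect the difference between the groups. The direction of their difference thus follows from the choice by likeness to Syt4. All 5 were called lower in the knockout, with log2 fold changes of -1.25, -1.74, -1.01, -1.44 and -1.19 in that order. Nfasc was not called without control 1 (-0.997), control 4 (-0.98) or knockout 2 (-0.98). Measured the same way, Syt11 had r = 0.983 with Syt4, and the remaining members ranged from -0.96 for Syt17 to -0.61 for Syt2.

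Of the 7 synaptotagmin genes outside the set of 10, Syt8 had too few counts to be tested, and 2 of the other 6 were called, both as higher. Syt10, known for IGF-1 release, had 8.0 to 24.3 normalized counts in controls and 68.6 to 105.2 in knockouts and rose with a log2 fold change of 2.29 (SE 0.35, adjusted p = 0.00498 in edgeR's quasi-likelihood test). Syt16, which lacks calcium binding, had 108.6 to 178 and 270.8 to 450.2 normalized counts and rose with a log2 fold change of 1.31 (SE 0.23, adjusted p = 0.00757, edgeR). Syt14 passed only the adjusted p (0.0461, edgeR) with a log2 fold change of 0.40 (SE 0.12), and in 10 of 16 alternatives, among them the replicate block and leaving out any knockout library or control 2, 3 or 4, it did not. Syt12 (0.54, SE 0.27), Syt15 (0.39, SE 0.49) and Syt9 (-0.39, SE 0.15) did not pass the adjusted p, although Syt12 did with the replicate block (0.45).

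Among 11 tested relatives with C2 domains, 1 was called lower and 2 higher. Sytl2, a synaptotagmin-like protein that tethers vesicles through Rab27, had 4004 to 4773 normalized counts in controls and 567.8 to 1020 in knockouts, with a log2 fold change of -2.41 (SE 0.20, adjusted p = 0.000381, edgeR). Rph3a, a Rab3 effector, rose from 53.7 ± 37.1 (SD, n = 4) to 265.2 ± 79.8 (SD, n = 3) normalized counts (log2 fold change 2.31, SE 0.57, adjusted p = 0.0256, edgeR), and Doc2a, a calcium sensor of high affinity, from 15.2 ± 8.0 to 41.6 ± 16.0 (1.44, SE 0.43, adjusted p = 0.0476, edgeR). Doc2a had only 8 to 85 raw counts per library, and its groups overlapped, with 27.15 normalized counts in control 2 and 26.66 in knockout 3. The Rph3a call was lost whichever of the 3 knockout libraries was left out, and the Doc2a call without control 1, 3 or 4 or knockout 1 or 2. Of the relatives with the highest levels, Esyt2 had a log2 fold change of -0.40 (SE 0.09, adjusted p = 0.0191, edgeR) but did not pass the adjusted p whichever knockout library was left out, and Esyt1 did not pass (-0.57, SE 0.35), with a value of -0.17 without control 3.

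The partners of synaptotagmins in vesicle fusion were read from 48 listed genes, of which 45 were tested, 1 was called lower and 5 were called higher. With the adjusted p alone, 8 were lower and 15 higher, and the median log2 fold change was 0.18. Of all tested genes, 3.08% were called lower and 3.97% higher, 12.2% and 11.6% passed the adjusted p in these directions, and the median was -0.0037. Nothing particular to the vesicle fusion genes is read from these counts. Of 14 SNARE genes, 2 were called, both higher. Snap25, the neuronal plasma membrane SNARE bound by Syt1, had 203.1 to 659.6 normalized counts in controls and 1522 to 2263 in knockouts, with a log2 fold change of 2.12 (SE 0.40, adjusted p = 0.00998, edgeR), and was called in all 16 alternatives. Of the vesicle SNAREs with the highest levels, Vamp3 decreased (-0.44, SE 0.08, adjusted p = 0.00800, edgeR) and Vamp2 increased (0.40, SE 0.10, adjusted p = 0.0261, edgeR), both by less than the required fold, and Vamp2 did not pass without knockout 2.

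Among 17 tested regulators of fusion, 3 were called higher. Napb, which helps to take SNARE complexes apart, rose with a log2 fold change of 1.64 (SE 0.25, adjusted p = 0.00471, edgeR) and kept its call in all 16 alternatives. Cplx1, a complexin that clamps SNARE complexes next to Syt1, rose with 1.54 (SE 0.42, adjusted p = 0.0373, edgeR) but was not called without control 1, control 3, knockout 1 or knockout 2. Unc13a, a priming factor named after its values were seen, rose with 1.02 (SE 0.25, adjusted p = 0.0270, edgeR) and dropped below the required fold with the replicate block (0.86) and without control 3 (0.95), control 4 (0.88) or knockout 2 (0.85). It was also not called without knockout 1, with no filter on low counts (1.02) and with library sizes without the genes that collect ribosomal RNA (0.998), and thus lost its call in 7 of 16 alternatives. Napa, a regulator with a high level, did not pass (-0.17, SE 0.05), although it did with DESeq2's Wald test, with library sizes without the genes that collect ribosomal RNA and with their share as covariate.

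Of 14 tested genes for SV2 proteins and dense core vesicles, 1 was called. Vgf, a secreted peptide precursor, had 229.5 to 603.5 normalized counts in controls and 111.9 to 196.6 in knockouts and fell with a log2 fold change of -1.39 (SE 0.38, adjusted p = 0.0366, edgeR), a call that was lost without control 2, knockout 1 or knockout 3. Scg3 increased by 0.47 (SE 0.11, adjusted p = 0.0194, edgeR) but did not pass without knockout 2, and Cpe, the carboxypeptidase of peptide processing with the highest level in this group, did not pass (-0.36, SE 0.14), although it did without knockout 2 (-0.51), with the replicate block (-0.39) and with the share of ribosomal RNA as covariate (-0.24). The number of the 10 synaptotagmin genes called higher was 2 without control 1 or control 3 and 1 without knockout 1 or knockout 2, whereas Syt4 was called lower whichever library was left out. Over all genes, 729 were called higher with all libraries, 757 without control 1, 572 without control 3, 547 without knockout 1 and 335 without knockout 2. The number of higher calls was thus smaller over all genes as well, except without control 1.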

How the data were processed

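Total RNA of 4 wildtype control and 3 Klf13 knockout cultures was sequenced. The authors trimmed reads with Trimmomatic 0.36, mapped them with STAR 2.5.2b and counted unique hits in exons with Subread 1.5.2 on GRCm38, and deposited raw counts per gene. The strand setting is not given in the sources used here. Symbols were found for 48970 of 49315 identifiers. In R 4.3.3, edgeR 4.0.16 was used with filterByExpr (18352 genes kept), TMM and a robust quasi-likelihood fit on group, with Benjamini-Hochberg adjustment over all tested genes. The SE was derived from the quasi-likelihood F. CPM on the log2 scale used a prior count of 2. The code was tested on simulated data. Members and gene lists were chosen with earlier results of these data known. Named were all members, tested Syt relatives, the 2 genes with the highest mean FPKM and the 2 called genes with the largest log2 fold change per direction in each vesicle list, Klf13 and the 5 genes most like Syt4. A few genes that this rule names are left out of the text. Alternatives were DESeq2 1.42.0, limma 3.58.1 (voom), other normalizations and filters, ribosomal RNA share as covariate, the replicate number as block, and leaving out each library. Deviations of same-numbered control and knockout libraries from their group means correlated at r = 0.11, 0.46 and 0.17 across 18352 genes, which are not independent, and those of differently numbered ones at -0.53 to 0.20. The labels name no shared litter or day. As all 3 values exceeded 0.1, the number was also fitted as a block, but only the pair of replicates 2 stood above every unlike pair.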

Additional observations from a re-analysis of the deposited data

Results flagged for a closer look

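In 4 of 40 genes examined, a control library stood apart from the other 3 by more than Dixon's critical share of the range for 4 samples, and chance alone flags about 1 in 20 such groups. None of the 10 synaptotagmin genes in the set was among them. Syt8 had 24 normalized counts in control 3, against 2.01 to 4.68 in the other controls. Syt15 had 20.25 normalized counts in control 1, against 6.03 to 6.86 in the others. Esyt2 had 2970 normalized counts in control 4, against 2411 to 2486, and Doc2a had 27.15 in control 2, against 10.8 to 11.4. Groups of 3 knockout libraries were not examined in this way.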

How the results depend on the processing

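Syt4 was called lower in all 16 alternatives, with log2 fold changes of -3.78 to -3.62, and Klf13 kept its call with each library left out (-3.75 to -3.61). The number of the 10 genes called higher was 4. It was 1 with no filter on low counts, where 616 of 34026 genes were called higher, and 1 to 5 with each library left out in turn. Of the vesicle fusion genes, 1 was called lower, a number that was 2 with DESeq2's Wald test, with DESeq2 size factors and with library sizes without the genes that collect ribosomal RNA, 3 with the share of ribosomal RNA as covariate, and 0 to 2 with each library left out. Over all genes these settings gave 718, 574, 590 and 610 lower calls in that order, against 565, and 388 to 577 with each library left out. The 5 called higher were 3 with no filter on low counts, 3 with the replicate block, 7 with the share of ribosomal RNA as covariate and 2 to 6 with each library left out. Over all genes these settings gave 616, 563 and 878 higher calls in that order, against 729, and 335 to 810 with each library left out. With no filter, Rph3a, Cplx1, Vgf and Unc13a lost their calls, and Nfasc did so with upper quartile normalization (-0.97) and with at least 10 counts in every library (-0.999). The causes of these shifts were not tested. The replicate block changed no call among the 10 synaptotagmin genes, and it cost Unc13a (0.86) and Nfasc (-0.999) their calls. Without division by gene length, 7 of 10 genes kept their place in the control order of levels. For the 38 single genes named, 550 of 604 alternative values gave the same call, 49 lost and 5 gained it, and none changed sign. At 14 to 39 counts per library, differences in Syt2 of the size seen in its mean could not be resolved.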
